A study of Homo sapiens with 12 samples.

Results

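The DNA methylation writers and TET enzymes examined here are 8 genes, taken by name with no threshold on a measured value: the DNA methyltransferases DNMT1, DNMT3A and DNMT3B, the hemimethylation readers UHRF1 and UHRF2, and the TET dioxygenases TET1, TET2 and TET3. All 8 of 8 were present in the table of 58735 genes and passed the filter on low counts, as did 16646 genes in all. They were measured by polyA RNA-seq in C4.2B, a castration-resistant prostate cancer line derived from LNCaP cells, with 3 libraries in each of 4 arms. The DMSO arm received vehicle only. The AKTi arm received 0.25 μM ipatasertib, an AKT inhibitor, for 24 hours. The EZH2i arm was pretreated for 6 days with 1 μM tazemetostat, which inhibits the histone methyltransferase EZH2. It stayed in tazemetostat for the last 24 hours. The combination arm received the same tazemetostat and, for the last 24 hours only, 0.25 μM ipatasertib as well. The arms come from 1 cell line, so any difference between them holds for that line only. Per the study's methods, cells were seeded in triplicate plates after the pretreatment, so the p-values measure the spread between plates of 1 experiment.

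DNMT1 copies methylation onto the new strand after DNA replication, and UHRF1 recognises hemimethylated CpG sites and recruits DNMT1 to them. DNMT3A and DNMT3B place methylation on unmethylated DNA, while UHRF2 resembles UHRF1 but does not replace it in maintenance. The TET enzymes oxidise 5-methylcytosine in steps that use oxygen and 2-oxoglutarate, and base excision can then restore cytosine. RNA levels were measured here, and neither DNA methylation nor enzyme activity was.

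RefSeq lists 19 start-site windows of 300 bases (250 before the first transcribed base and 50 from it onward, GRCh38.p14) for the 8 genes. The stretches printed here run from 130 bases before the start to 30 after it, 5′ to 3′ on the gene's strand. They are shown because they hold motif matches: capitals mark an E2F-type motif in UHRF1 and DNMT1 and an E-box in DNMT3A, TET2 and TET3. UHRF2 and DNMT3B, which also fell in the combination, had neither motif. Whether a motif bears on a change was not tested. Their positions are chr19:4909371-4909530 on the plus strand for UHRF1, chr19:10194924-10195083 on the minus strand for DNMT1, chr2:25252286-25252445 on the minus strand for DNMT3A, chr4:105145745-105145904 on the plus strand for TET2 and chr2:73984780-73984939 on the plus strand for TET3. The UHRF1, DNMT1 and DNMT3A stretches lie inside the deposited gene spans. The TET2 stretch crosses the first base of its span, and the TET3 stretch lies before its span.
UHRF1: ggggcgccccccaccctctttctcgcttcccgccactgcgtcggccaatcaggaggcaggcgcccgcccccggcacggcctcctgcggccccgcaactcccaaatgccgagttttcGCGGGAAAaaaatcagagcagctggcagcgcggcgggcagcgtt
DNMT1: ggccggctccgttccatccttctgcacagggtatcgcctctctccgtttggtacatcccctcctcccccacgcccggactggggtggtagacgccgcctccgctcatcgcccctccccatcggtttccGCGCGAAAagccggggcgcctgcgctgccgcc
DNMT3A: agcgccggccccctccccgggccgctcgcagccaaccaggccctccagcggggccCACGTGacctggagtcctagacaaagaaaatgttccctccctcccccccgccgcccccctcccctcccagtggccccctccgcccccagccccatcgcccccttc
TET2: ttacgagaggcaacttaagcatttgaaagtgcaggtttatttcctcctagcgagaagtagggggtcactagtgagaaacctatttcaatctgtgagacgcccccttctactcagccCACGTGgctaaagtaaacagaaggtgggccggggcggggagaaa
TET3: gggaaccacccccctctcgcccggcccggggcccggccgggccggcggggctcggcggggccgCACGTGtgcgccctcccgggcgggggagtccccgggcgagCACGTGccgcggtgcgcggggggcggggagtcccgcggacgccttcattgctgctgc

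The E2F-type motif was searched on both strands as TTTCCCGC, TTTGGCGC, TTTCGCGC or TTTGCCGC, and the E-box as CACGTG, which reads the same on both strands. An E2F-type match began 14 bases before the start in the first UHRF1 window and 2 bases before it in DNMT1, and a second UHRF1 window held another at 160 bases. No other of the 8 genes had a match, and 3.99% of all 27305 genes with RefSeq windows had one (3.31% of the 35116 windows). With each gene's windows numbered as listed, E-box matches lay 75 bases before the start in DNMT3A window 4 and 127 in window 6. They lay 14 bases before it in TET2 window 1, and 67 and 27 in TET3 window 1. DNMT3A windows 1, 2 and 3, at the 5′ end of the deposited span, held none, and neither did window 5. Window 2 of TET2 and window 2 of TET3 held none either. The share of all genes with an E-box in a window was 8.77% (7.26% of windows). The CCAAT box (CCAAT) was in windows of 4 of the 8 genes, against 39.7% of all genes, and the GC box (GGGCGG) in 5 of 8, against 48.3%. A FOXO-type motif (GTAAACAA) was in none of the 8, against 1.18%. The motifs were chosen after these windows had been seen, genes with several windows had more chances of a match, and which starts C4.2B cells use was not measured, so the matches describe letters only.

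All libraries held 14133755 to 22276417 counts on genes, and libraries of an arm differed by more than sampling noise. The luminal prostate identity of the cells was checked with 10 markers, of which 10 were detected, at a summed 3988 to 4122 CPM (counts scaled to a common library size) in DMSO and 8766 to 8955 in the combination. Marker sums of fibroblasts, leukocytes, endothelial and basal cells reached at most 18.5, 1.35, 7.38 and 0.368 CPM. In bulk RNA, fewer cells expressing a gene and less RNA of it per cell cannot be told apart.

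The 8 genes did not move together in the combination. DNMT1, UHRF1, UHRF2 and DNMT3B fell, DNMT3A, TET2 and TET3 rose, and TET1 did not pass the test. In the edgeR quasi-likelihood test, 7 of 8 genes therefore passed an adjusted p of 0.05, beside 73.2% of all genes tested. In EZH2i the count was again 7 of 8 (3 higher and 4 lower), beside a background of 64.1%. In AKTi it was 6 of 8 (1 higher and 5 lower), beside 42.5%. With so many genes changed in these cells, the counts themselves set the 8 genes little apart, and the sizes and directions are given gene by gene.

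**Figure D1:**
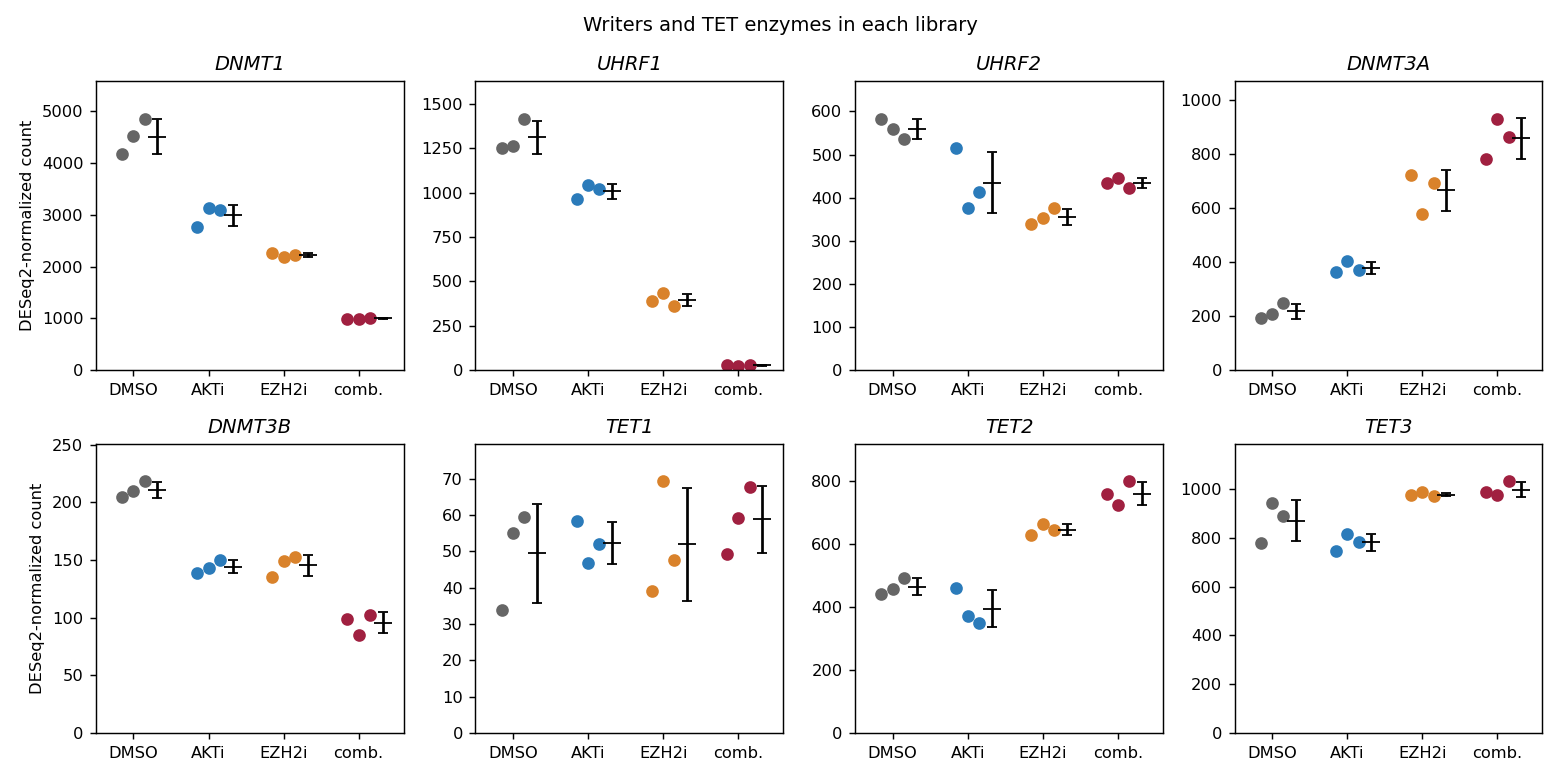
DESeq2-normalized counts (y axis, each panel from 0) of the 8 genes in the 4 arms, with 1 point per library and the mean with its SD (n = 3) as a bar to the right; comb. is the combination. The 3 combination libraries of UHRF1 lie between 25.9 and 31.0, far below every other library, while those of DNMT3A lie between 781 and 931, above every other library.

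Of the maintenance genes, UHRF1 (ENSG00000276043, chr19:4903080-4962154, hg38, plus strand) had normalized counts of 1252, 1263 and 1416 in DMSO and 962, 1042 and 1018 in AKTi. The EZH2i libraries held 391, 433 and 363, and the combination libraries 30.4, 25.9 and 31.0. No 2 arms overlapped, and the order was DMSO, AKTi, EZH2i, combination. UHRF1 fell by 0.37 in AKTi (log2, SE 0.073, adjusted p = 7.5e-05), by 1.72 in EZH2i (SE 0.078, adjusted p = 1.8e-20). In the combination it fell by 5.47 (SE 0.11, adjusted p = 3.6e-31), which is 44.3-fold. Among the 16646 genes tested, 3 had a lower estimate in the combination. In EZH2i, by comparison, 132 genes had a lower estimate than UHRF1.

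DNMT1 (ENSG00000130816, chr19:10133345-10231286, minus strand) had normalized counts of 4165, 4513 and 4854 in DMSO. The AKTi libraries held 2763, 3126 and 3096, the EZH2i libraries 2260, 2187 and 2232, and the combination libraries 995, 998 and 1010. The arms took the same order as for UHRF1, again without overlap. DNMT1 fell by 0.58 in AKTi (log2, SE 0.057, adjusted p = 1.4e-10), by 1.01 in EZH2i (SE 0.058, adjusted p = 1.4e-17) and by 2.15 in the combination (SE 0.061, adjusted p = 2.6e-27), or 4.45-fold. S1PR2, a receptor gene on the same strand within this span, held 28 to 72 counts per library against at least 1043 for DNMT1.

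UHRF2 (ENSG00000147854, chr9:6413151-6507054, plus strand), the paralog of UHRF1, took another course. Its normalized counts were 583, 559 and 537 in DMSO and 514, 377 and 414 in AKTi. The EZH2i libraries held 339, 353 and 376, and the combination libraries 435, 445 and 421. The EZH2i libraries were the lowest, and the combination libraries lay within the AKTi range. UHRF2 fell by 0.35 in AKTi (log2, SE 0.096, adjusted p = 0.0029), by 0.64 in EZH2i (SE 0.096, adjusted p = 3.7e-07) and by 0.35 in the combination (SE 0.094, adjusted p = 0.0014). The combination estimate depended on scaling: by library size alone it was -0.15 (adjusted p = 0.16) and by the upper quartile -0.16 (adjusted p = 0.12).

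Of the de novo enzymes, DNMT3A (ENSG00000119772, chr2:25227855-25342590, minus strand) had normalized counts of 195, 209 and 249 in DMSO and 364, 403 and 370 in AKTi. They were 723, 579 and 694 in EZH2i and 781, 931 and 864 in the combination. The order of the arms was the reverse of that of DNMT1, with no overlap. DNMT3A rose by 0.80 in AKTi (log2, SE 0.11, adjusted p = 1.2e-07), by 1.61 in EZH2i (SE 0.10, adjusted p = 1.9e-16) and by 1.99 in the combination (SE 0.0997, adjusted p = 9.9e-20), or 3.97-fold.

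DNMT3B (ENSG00000088305, chr20:32762385-32809356, plus strand) had normalized counts of 205, 210 and 218 in DMSO and 139, 143 and 150 in AKTi. In EZH2i they were 135, 149 and 153, and with both agents 98.4, 85.2 and 103. The single agents overlapped each other, and the combination libraries were below both. DNMT3B fell by 0.54 in AKTi (log2, SE 0.13, adjusted p = 0.0011), by 0.52 in EZH2i (SE 0.13, adjusted p = 6.7e-04) and by 1.13 in the combination (SE 0.14, adjusted p = 2.9e-09). The 2 de novo enzymes therefore changed in opposite directions in every treated arm.

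TET2 (ENSG00000168769, chr4:105145875-105279816, plus strand) had normalized counts of 441, 458 and 493 in DMSO and 461, 372 and 350 in AKTi. Those of EZH2i were 629, 664 and 643, and those of the combination 760, 724 and 799. The AKTi and DMSO ranges overlapped, while EZH2i and the combination were above both and apart from each other. TET2 rose by 0.48 in EZH2i (log2, SE 0.087, adjusted p = 8.2e-06) and by 0.73 in the combination (SE 0.086, adjusted p = 1.6e-09). Its AKTi estimate was -0.23 (SE 0.092, adjusted p = 0.044), a call lost without DMSO C (-0.19, adjusted p = 0.16), AKTi B (-0.21, adjusted p = 0.12) or AKTi C (-0.17, adjusted p = 0.20), by library size alone (adjusted p = 0.15), by the upper quartile (adjusted p = 0.14) and with only the 6 libraries compared (adjusted p = 0.070). Without AKTi A it was -0.36 (adjusted p = 0.0028).

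TET3 (ENSG00000187605, chr2:73986404-74108176, plus strand) had normalized counts of 779, 942 and 890 in DMSO and 745, 815 and 785 in AKTi. Those of EZH2i were 976, 987 and 972, and those of the combination 989, 975 and 1032. The EZH2i and combination ranges overlapped, and both lay above DMSO by a narrow margin. TET3 rose by 0.18 in EZH2i (log2, SE 0.070, adjusted p = 0.025) and by 0.22 in the combination (SE 0.070, adjusted p = 0.0056), and its AKTi estimate was -0.14 (SE 0.072, adjusted p = 0.11). These small changes moved with single libraries and with scaling. By library size alone the estimates were 0.32 in EZH2i (adjusted p = 1.4e-04) and 0.42 in the combination (adjusted p = 2.6e-06), and by the upper quartile 0.30 (adjusted p = 3.8e-04) and 0.40 (adjusted p = 4.7e-06). Without DMSO A the estimates were 0.11 in EZH2i (adjusted p = 0.22), 0.14 in the combination (adjusted p = 0.094) and -0.21 in AKTi (adjusted p = 0.025). The EZH2i call was also lost without EZH2i A (0.15, adjusted p = 0.076), B (0.17, adjusted p = 0.058) or C (0.15, adjusted p = 0.13).

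TET1 (ENSG00000138336, chr10:68560656-68694482, plus strand) was the least abundant TET enzyme, with normalized counts of 33.9, 55.0 and 59.3 in DMSO and 58.3, 46.7 and 51.9 in AKTi. The EZH2i libraries held 39.0, 69.2 and 47.7, and the combination libraries 49.2, 59.2 and 67.8. Every pair of arms overlapped. The combination estimate was 0.25 on the log2 scale, with a 95% interval of -0.25 to 0.76 (adjusted p = 0.36), so the test did not separate TET1 from no change or from a change of that size. Its SD between libraries was 13.6 in DMSO and 15.6 in EZH2i. The pseudogene COX20P1 within the gene held 20 to 36 counts per library, close to the lowest TET1 count of 31.

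**Figure D2:**
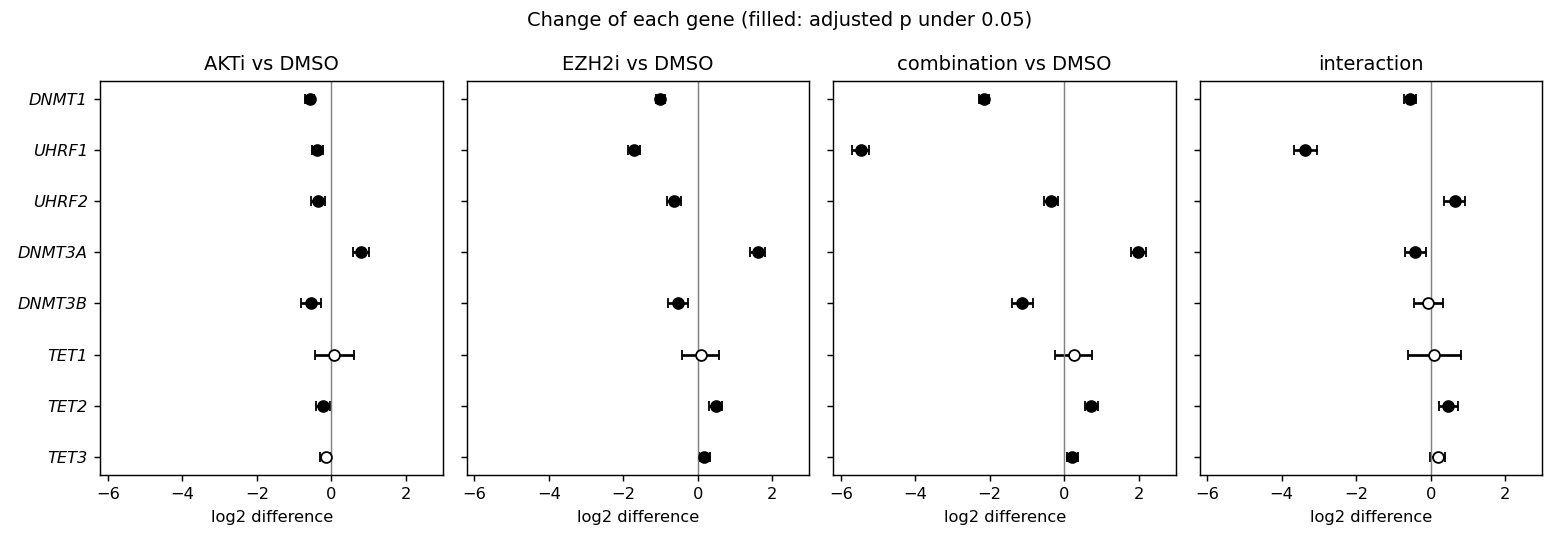
Log2 difference from the edgeR test (x axis) for the 8 genes (rows) in AKTi, EZH2i and the combination against DMSO, and for the interaction, with 95% intervals as bars and filled points where the adjusted p is under 0.05. UHRF1 in the combination, at -5.47, is the estimate farthest from 0, and the TET1 interval crosses 0 in every panel.

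The arms were also compared with each other. Against AKTi, the combination differed in 6 of 8 genes (3 higher and 3 lower), beside 64.2% of all genes. Against EZH2i it differed in 6 of 8 (3 higher and 3 lower), beside 46.7%. UHRF1 was 13.4-fold lower than in EZH2i (log2 -3.75, SE 0.13, adjusted p = 5.1e-24) and DNMT1 2.21-fold lower (-1.14, SE 0.061, adjusted p = 5.0e-18).

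DNMT3A was higher than in EZH2i by 0.38 (log2, SE 0.088, adjusted p = 5.6e-04). UHRF2 was higher by 0.29 (SE 0.097, adjusted p = 0.012) and TET2 by 0.25 (SE 0.083, adjusted p = 0.014). The UHRF2 call was lost without EZH2i A (0.23, adjusted p = 0.077). The TET2 call was lost without EZH2i A (0.20, adjusted p = 0.075) or combination C (0.21, adjusted p = 0.076). EZH2i and AKTi, set against each other, differed in 6 of 8 genes (3 higher and 3 lower in EZH2i), beside 50.4%. The UHRF2 difference between them, -0.29 (SE 0.099, adjusted p = 0.015), was lost without AKTi A (-0.17, adjusted p = 0.18), by library size alone (-0.20, adjusted p = 0.094) and by the upper quartile (-0.23, adjusted p = 0.057).

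Whether the agents together moved a gene by more or less than the sum of their single changes was tested as the interaction, the AKTi effect in the presence of EZH2i less the AKTi effect without it (log2). It passed the test in 5 of 8 genes (2 positive and 3 negative), beside 28.2% of all genes. For UHRF1 the single changes summed to -2.09 and the combination measured -5.47, an interaction of -3.38 (SE 0.15, adjusted p = 2.2e-19). For DNMT1 the sum was -1.59 and the combination -2.15, an interaction of -0.56 (SE 0.083, adjusted p = 1.9e-06). Both genes therefore fell by more than the sum.

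UHRF2 had a sum of -0.99 against -0.35 in the combination, an interaction of 0.64 (SE 0.14, adjusted p = 3.7e-04). TET2 had a sum of 0.26 against 0.73, an interaction of 0.47 (SE 0.12, adjusted p = 0.0033). DNMT3A rose by less than the sum, 1.99 against 2.41, an interaction of -0.42 (SE 0.14, adjusted p = 0.020). The DNMT3A call was lost on leaving out DMSO A (-0.36, adjusted p = 0.073), DMSO B (-0.36, adjusted p = 0.080), AKTi B (-0.34, adjusted p = 0.098), EZH2i C (-0.36, adjusted p = 0.083) or combination A (-0.36, adjusted p = 0.067). DNMT3B lay close to its sum, -1.13 against -1.06, with an interaction interval of -0.45 to 0.33.

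**Figure D3:**
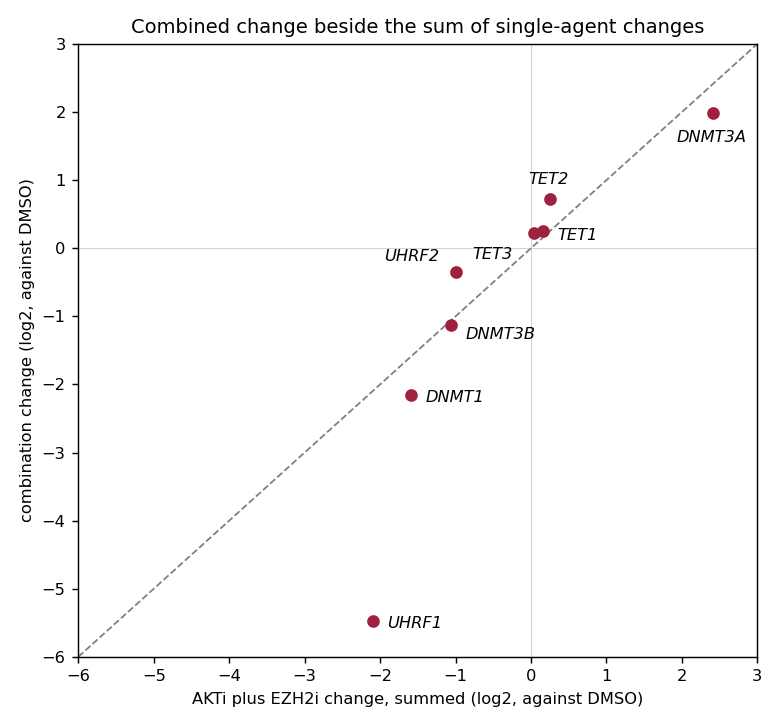
Change in the combination (y axis, log2 against DMSO) beside the sum of the AKTi and EZH2i changes (x axis, same scale), with 1 point per gene and a dashed line where they are equal. UHRF1 lies farthest below the line, at -2.09 and -5.47, and DNMT3B lies next to it, at -1.06 and -1.13.

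Levels can be compared between genes only per length, and for this the counts were expressed per kilobase of the deposited gene length and scaled library size (RPKM). That length is 1 fixed value per gene, and which transcripts these cells use was not measured. Ranks, ratios and shares between genes are therefore approximate. In DMSO, DNMT1 had the highest level at 28.2 RPKM, followed by UHRF1 at 15.6, TET3 at 4.35, UHRF2 at 3.46, DNMT3B at 2.79, TET2 at 1.73, DNMT3A at 1.11 and TET1 at 0.33. In the combination, DNMT1 still led at 6.35 RPKM, but TET3 at 5.06 and DNMT3A at 4.44 came next and UHRF1 was last at 0.35, beside TET1 at 0.39.

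DNMT3A supplied 3.45% ± 0.20 (SD, n = 3) of the summed RPKM of the DNA methyltransferases in DMSO and 8.57% ± 0.39 in AKTi. Its share was 17.6% ± 1.53 in EZH2i and reached 36.7% ± 2.31 in the combination. There were 25.5 units of DNMT1 for each of DNMT3A in DMSO and 1.44 in the combination. The summed level of the family meanwhile went from 32.1 RPKM in DMSO to 12.1 in the combination. UHRF1 supplied 81.8% ± 1.57 of the UHRF sum in DMSO and 11.5% ± 1.22 in the combination, so UHRF2 became the larger part. The TET sum was 6.40 RPKM ± 0.55 in DMSO and 8.32 ± 0.35 in the combination, and TET2 made up 27.1% and 34.5% of it. These shares are descriptions, with no test beyond those of the single genes.

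**Figure D4:**
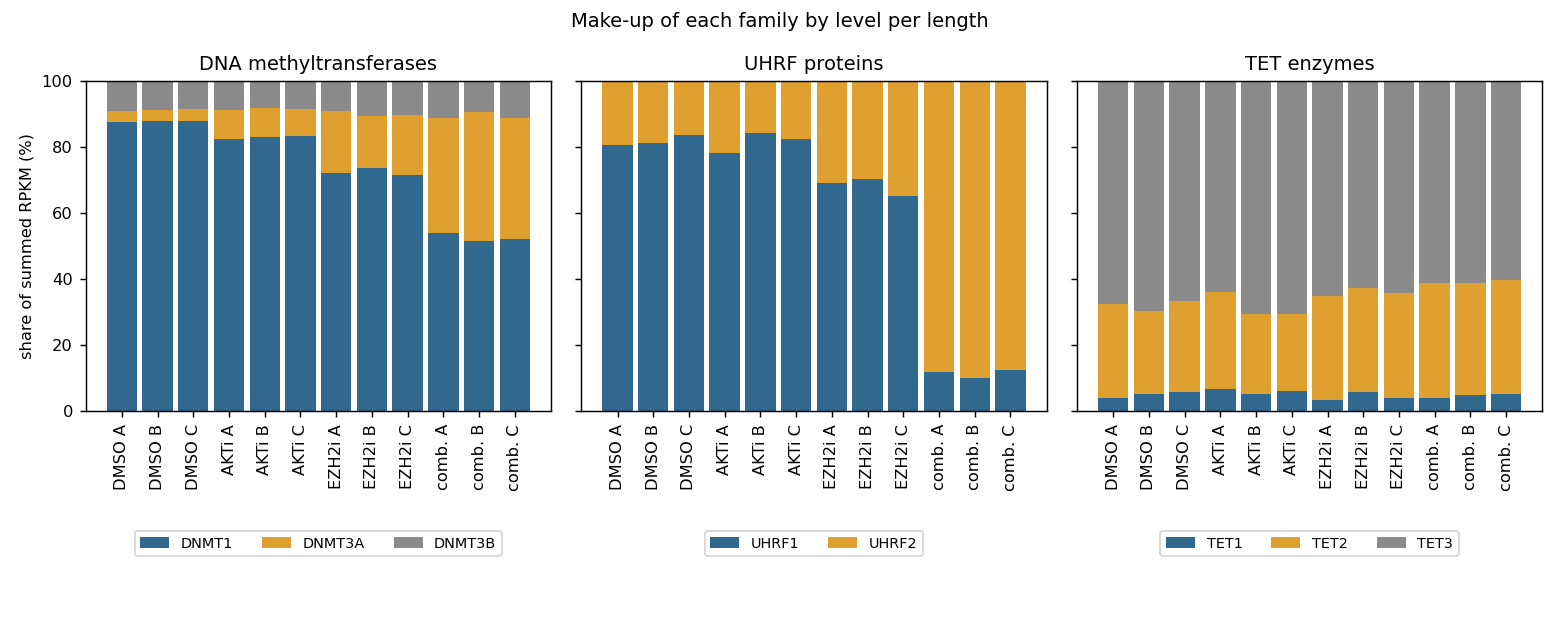
Share of the summed RPKM of each family (y axis, %) supplied by each gene in each of the 12 libraries (x axis, comb. is the combination). The DNMT3A part grows from about 3.45% in DMSO to 36.7% in the combination, and the UHRF1 part shrinks from 81.8% to 11.5%.

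DNMT1 and UHRF1 are transcribed mainly around S phase, and genes of DNA replication moved with them. All 19 of 19 listed S phase genes, among them the MCM helicase subunits, fell in AKTi (median -0.79 on the log2 scale), in EZH2i (-1.34) and in the combination (-2.82), where the median of all genes was 0.06. Of all genes tested, AKTi lowered 21.9%, EZH2i 31.5% and the combination 35.2%, and 38% rose in the combination. UHRF1 fell by less than 18 of the 19 in AKTi and by more than 17 of the 19 in EZH2i. In the combination it fell by more than any of them, the lowest being the ribonucleotide reductase subunit RRM2 at -5.10. DNMT1 fell by less than 16 of the 19 in the combination, DNMT3B by less than 18 and UHRF2 by less than all 19. The part of the S phase genes' fall in these results was not tested.

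**Figure D5:**
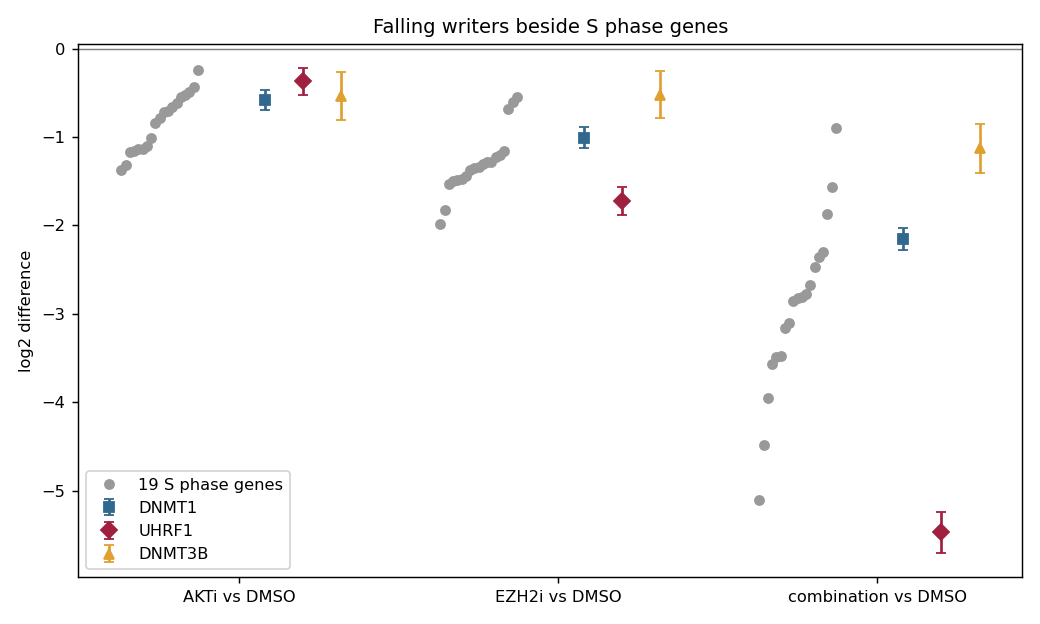
Log2 difference against DMSO (y axis) in AKTi, EZH2i and the combination for 19 S phase genes (grey points, spread sideways in order) and for DNMT1, UHRF1 and DNMT3B with 95% intervals. In the combination UHRF1 at -5.47 lies below every grey point, and DNMT1 at -2.15 lies above 16 of them.

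Among partners of the DNA methyltransferases, 6 of 7 genes were tested (DNMT3L, a cofactor of the de novo enzymes, had no count), and in the combination 5 fell and 1 rose, with a median of -2.58, beside the 35.2% of all genes that fell and the 38% that rose. CDCA7 and HELLS, which form a nucleosome remodeller needed for methylation of heterochromatin, fell by 4.57 and 3.46 on the log2 scale. PCNA, the replication clamp that binds DNMT1, fell by 3.09, and LIG1, a replication ligase that UHRF1 can bind, fell by 2.07. USP7, a deubiquitinase of DNMT1 and UHRF1, fell by 0.37, and the zinc finger gene ZBTB24 rose by 0.22 (adjusted p = 0.038). PCNA and LIG1 act in replication too. The falls of CDCA7, HELLS, PCNA and LIG1 lay within the range of the 19 S phase genes, -5.10 to -0.90. The fall of USP7 did not. What part these falls share with the S phase genes was not tested.

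Of 10 genes of TET partners and base excision, 9 were tested, and in the combination 3 rose and 6 fell, beside 38% and 35.2% of all genes, with a median of -0.39. By library size alone or by the upper quartile 5 fell, OGT being lost. The glycosylase TDG, which removes oxidised methylcytosine, fell by 1.71, and MBD4, a glycosylase for deaminated CpG sites, by 1.04. NEIL1, another glycosylase, rose by 1.77, GADD45A, a stress gene linked to demethylation, by 1.26, and CXXC5, a CXXC-domain gene related to a TET2 partner, by 0.94.

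Among 7 methyl-CpG readers, 4 rose and 2 fell (median 0.23), or 1 by library size alone or by the upper quartile, where MBD1 was lost. With 73.2% of all genes called, that count is near the background. The readers were led by ZBTB4 at 1.30, and MBD2 was at -0.11 (adjusted p = 0.14). Among 10 genes that supply the methyl donor or 2-oxoglutarate, 2 rose and 6 fell (median -0.33), against 4 and 5 by library size alone or by the upper quartile, where MAT2B and MTR were called higher and MAT2A was lost. This count too is near the 73.2% of all genes. AHCY, which clears S-adenosylhomocysteine, fell by 1.00, and IDH2, a mitochondrial source of 2-oxoglutarate, by 1.02.

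Germline genes whose promoters are methylated in most somatic cells were also listed. DNA methylation was not measured, so these genes cannot show whether it was lost. Of 18, only 7 passed the filter, and the rest had too few counts to be called. None of the 7 rose in the combination and 3 fell, beside 38% and 35.2% of all genes. MAGEA1 fell by 1.51, MAGEA3 fell by 1.02 and CTAG2 fell by 0.85, the last a call lost by library size alone and by the upper quartile. MAGEA1 and MAGEA3 were already expressed in DMSO, at 200.3 and 225.4 CPM. Reads of the MAGEA and CTAG families can be split between near-identical copies, so their values are uncertain. DAZL and MAGEB2 had no count in any library. None of the 7 tested germline genes rose in AKTi or EZH2i against DMSO either, except that BRDT was called higher in EZH2i by library size alone and by the upper quartile.

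The tested protein-coding genes whose log2 CPM followed each member most closely over the 12 libraries were named by Pearson's r. Since these libraries fall into 4 arms, such values mostly restate the order of the arms. The closest were AIF1L for UHRF1 (r = 0.998), PSMC4 for DNMT1 (0.996), NOTCH3 for DNMT3A (0.993), POLQ for DNMT3B (0.989), ZNF711 for TET2 (0.983), PCDH1 for TET3 (0.945), IFT88 for UHRF2 (0.939) and TMEM191C for TET1 (0.828). Among the members themselves, DNMT1 and UHRF1 had r = 0.973, DNMT1 and DNMT3A r = -0.91, and UHRF1 and UHRF2 r = 0.26.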

How the data were processed

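Libraries were made from polyA RNA of C4.2B cells (4 arms, 3 replicates each). Reads were aligned with STAR to hg38 and counted with HTSeq by the authors, and versions, annotation release and strand setting are not given in the sources used here. The deposited counts are whole numbers per gene. A second deposited table, of signal, holds counts that the authors normalized with DESeq2, and the 683928 values compared (56994 gene names) equalled the count divided by 1 size factor per library within 1e-04 of the value (or of 1, for smaller values). A deposited gene length column (other) belongs to no sample. Sequencing batches were not assigned to libraries.

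Counts were tested with edgeR 4.0.16 in R 4.3.3 (filterByExpr with minimum count 10 and minimum total 15, TMM, quasi-likelihood test, 1 mean per arm over 12 libraries, Benjamini-Hochberg over 16646 genes at 0.05). SEs are |log2 difference| over the root of F. The log2 CPM values used a prior count of 2. Python 3.11.15 was used for descriptions and figures. The edgeR and DESeq2 fits were tested on simulated counts. Replicate letters did not pair the libraries.

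The 8 genes and all gene lists, written from memory, were chosen with earlier results of these data known. Named genes are the 8 members, members of the lists and the closest protein-coding gene by Pearson's r for each member. A search for an NRF1 motif was also made and is not reported here, and neither are the values of some listed genes. Alternatives were DESeq2 1.42.0, library size or upper-quartile scaling, looser and stricter filters, a replicate block, only the 6 libraries compared and each library left out. The lists were also counted under the other scalings, chosen after seeing the data.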

Additional observations from a re-analysis of the deposited data

Results flagged for a closer look

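For 5 of the 8 genes, the AKTi effect differed between cells with and without EZH2i by the test of the interaction. The AKTi effect on UHRF1 was a larger fall with EZH2i (log2 -3.75) than without it (-0.37, difference -3.38, adjusted p = 2.2e-19). DNMT1 also fell more with it, -1.14 against -0.58 (difference -0.56, adjusted p = 1.9e-06). DNMT3A rose less with it, 0.38 against 0.80 (difference -0.42, adjusted p = 0.020). The DNMT3A call was lost on leaving out some single libraries (adjusted p up to 0.098). The AKTi estimates for UHRF2 and TET2 were negative without EZH2i and positive with it. They were -0.35 and 0.29 for UHRF2 (difference 0.64, adjusted p = 3.7e-04). For TET2 they were -0.23 and 0.25 (difference 0.47, adjusted p = 0.0033). The TET2 calls without and with EZH2i were lost on leaving out some single libraries (adjusted p up to 0.20 and 0.076). So was the UHRF2 call with EZH2i (adjusted p up to 0.077). Across all genes tested, 28.2% passed the same test.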

How the results depend on the processing

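The number of the 8 genes called stayed within 1.5 times under every alternative run: 5 to 7 in AKTi, 6 to 7 in EZH2i and in the combination, 6 for combination against AKTi, 4 to 6 for combination against EZH2i, 5 to 6 for EZH2i against AKTi and 4 to 5 for the interaction. The replicate block, for letters that did not pair the libraries (same-letter correlations of deviations -0.058 to 0.069, the best match sharing the letter in 4 of 12 libraries), gave 5 in AKTi, 7 in EZH2i, 7 in the combination, 6 in each comparison between treated arms and 5 for the interaction. In AKTi the call it lost was TET2 (-0.23, adjusted p = 0.050). Of the single-gene estimates under the alternatives, 716 kept direction and side of the threshold, 28 lost the call, 1 gained it and 23 changed sign, each of the last for an estimate that was not called. With all genes of at least 1 count, UHRF2 in combination against AKTi was -0.019, and the calls of TET2 in AKTi (adjusted p = 0.070), TET3 in EZH2i (0.079) and TET2 in combination against EZH2i (0.051) were lost. TET1 in EZH2i against AKTi was 0.078 by library size, 0.054 by upper quartile and 0.026 with at least 10 counts in every library. With each library left out, the ranges were -0.12 to 0.24 for TET1 in AKTi, -0.18 to 0.24 for TET1 in EZH2i, -0.11 to 0.089 for UHRF2 in combination against AKTi, -0.0064 to 0.43 for TET1 in combination against EZH2i, -0.26 to 0.13 for TET1 and -0.045 to 0.043 for DNMT3B in EZH2i against AKTi, and -0.084 to 0.35 for TET1 and -0.14 to 0.0066 for DNMT3B in the interaction. The cause was not tested. Scaling moved the median of all genes in the combination from 0.06 (TMM) to 0.26 (library size) and 0.25 (upper quartile). Under all alternatives the combination estimate ran from -5.54 to -5.27 for UHRF1, from -2.21 to -1.96 for DNMT1 and from 1.91 to 2.18 for DNMT3A. The limits set by depth were not separated from the spread between libraries.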
